A study of Sus scrofa with 20 samples.

Results

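CD83, PLAC8, CTSS, LAPTM5 and FCGR3A are 5 genes of white blood cells that gave higher signals in pig kidneys after neurologic death (ND) than in kidneys of control animals. They were read by 10 of the 23999 probe sets tested on a porcine expression array: 3 for CTSS, 2 each for CD83, LAPTM5 and FCGR3A, and 1 for PLAC8. Every probe set that the platform annotation assigns to 1 of these symbols was taken, and none of them carried a second symbol. The genes were chosen by their difference between ND and control kidneys on these same arrays, so that difference is given below as a description, with its standard error (SE) and without a test. Their working name is activated myeloid cell genes. These whole-tissue arrays cannot assign the signals to myeloid cells, and the marker lists described further on moved for more than one kind of leukocyte, so the genes are called by their symbols here.

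Kidney tissue came from 20 pigs that had been randomized, 10 to each group. In the ND group a balloon catheter under the dura was inflated until neurologic death was established, on top of the burr hole, catheters and anesthesia that the control animals also received. Both groups were ventilated for 6 hours and received 0.9% saline in boluses of 2 cc/kg when needed to hold the mean arterial pressure over 35 mmHg, so the control kidneys are from anesthetized and operated animals, not from untouched ones. Strain, sex and age are not given in the sources used here. The labels mention 2 kidney specimens per animal but list 1 array per animal number, and each array was counted as 1 animal.

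The 5 products act at different places in a leukocyte. CD83 is a surface protein of mature dendritic cells that is also induced on activated lymphocytes, and its gene is a target of NF-kB. FCGR3A encodes the low-affinity immunoglobulin G receptor CD16 of macrophages, monocytes and natural killer cells, which signals through the adaptor FCER1G. CTSS is a cysteine protease of the lysosome that trims the invariant chain CD74 so that MHC class II molecules can load peptide. LAPTM5 is a lysosomal membrane protein of hematopoietic cells, and PLAC8 is a small cysteine-rich protein expressed in myeloid and lymphoid cells.

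The deposited values were read as log2 signals and ranged from 0.88 to 16.2. The median signal of an array lay between 5.15 and 5.35 in the ND group and between 5.09 and 5.28 in the controls. A log2 signal of 2.79, the highest reading of 23 control probe sets for sequences absent from kidney, was taken as the upper end of background. The kidney epithelial genes LRP2 (mean log2 signals of 13.60 in ND and 13.35 in controls) and AQP1 were bright in both groups. Animal numbers were unevenly spread, with 7 of 10 ND animals but 1 of 10 control animals numbered up to 100. The dap spike-in RNA, added during labelling, read 2.55 and 2.92 on the arrays of Control_02 and Control_134 and between 8.36 and 10.1 on the other control arrays. Of the 23999 probe sets, 913 (3.80%) were higher and 799 (3.33%) lower in ND at an adjusted p under 0.05 (limma, Benjamini-Hochberg). Over all probe sets the median of the differences was -0.03.

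CD83, the maturation marker, had the largest difference of the 5 genes in the fit of all 20 animals. On its brighter probe set, Ssc.12095.1.S1_at, the log2 signal of ND kidneys ran from 6.02 (ND_198) over a median of 6.82 to 8.25 (ND_86). Control kidneys ran from 3.38 (Control_155) over a median of 5.06 to 6.42 (Control_02). The groups overlapped only between 6.02 and 6.42: 6 of 10 ND kidneys lay above every control, and 8 of 10 controls lay below every ND kidney. ND_31 (8.03) and ND_86 stood at the top, and Control_155, Control_156 (4.05) and Control_157 (3.40) at the bottom. ND kidneys averaged 6.87 ± 0.80 (SD, n = 10) against 4.91 ± 1.08 (SD, n = 10) for the controls, a difference of 1.96 ± 0.41 (SE) on the log2 scale or 3.89-fold. The order of CD83 and PLAC8 was not stable: PLAC8 had the larger difference with array weights (2.28 against 1.80), with a term for animal number (1.43 against 1.33) and without any 1 of ND_86, Control_155, Control_156 or Control_157.

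PLAC8 had the largest SD of the 5 in both groups. Its only probe set, Ssc.11048.1.S1_at, gave log2 signals from 4.98 (ND_193) over a median of 5.69 to 7.91 (ND_31) in ND kidneys. In controls it ran from 2.23 (Control_187), which is under the background level, over a median of 4.79 to 6.70 (Control_156). The ND kidneys fell into an upper set of 3, ND_01 (7.76), ND_22 (7.30) and ND_31, which lay above every control, and 7 between 4.98 and 6.36 that overlapped the controls. The upper 3 also have the lowest animal numbers of the ND group, and the part of the number in this split was not tested. The ND kidneys averaged 6.25 ± 1.03 (SD, n = 10) against 4.45 ± 1.32 (SD, n = 10) for the controls, a difference of 1.80 ± 0.52 (SE) or 3.48-fold. Leaving out 1 animal at a time gave differences from 1.55, without Control_187, to 2.05, without Control_156.

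CTSS, the invariant chain protease, was read by 3 probe sets. The brightest, Ssc.17203.1.A1_at, ran from 10.94 (ND_198) over a median of 11.59 to 12.36 (ND_22) in ND kidneys and from 10.35 (Control_157) over a median of 10.70 to 11.36 (Control_197) in controls. ND_22 and ND_31 (12.15) were highest, 8 of 10 ND kidneys lay above every control, and 7 of 10 controls lay below every ND kidney. The difference was 0.85 ± 0.16 (SE), or 1.81-fold, between means of 11.63 ± 0.42 (SD, n = 10) and 10.78 ± 0.28 (SD, n = 10). The spread of this probe set between animals was small next to that of CD83 or PLAC8, so a difference less than a doubling was still larger than the SD of either group.

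LAPTM5, the lysosomal membrane protein, had the most ND kidneys above every control. Its brighter probe set, Ssc.22037.1.S1_at, ran from 8.20 (ND_198) over a median of 9.12 to 9.92 (ND_22) in ND kidneys and from 7.36 (Control_184) over a median of 8.19 to 8.74 (Control_02) in controls. All ND kidneys except ND_198 lay above every control. ND_22, ND_47 (9.91) and ND_92 (9.81) formed an upper set, and Control_157 (7.38) and Control_184 a lower one. The difference was 1.11 ± 0.21 (SE), or 2.16-fold, between means of 9.21 ± 0.54 (SD, n = 10) and 8.10 ± 0.44 (SD, n = 10).

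FCGR3A, the immunoglobulin G receptor, was read at 8.70 (ND_198) to 10.70 (ND_47) with a median of 9.83 in ND kidneys by its brighter probe set, Ssc.167.2.S1_a_at. The controls ran from 8.13 (Control_184) over a median of 8.79 to 9.37 (Control_197). ND_198 lay under the control mean of 8.80 ± 0.39 (SD, n = 10), ND_193 (9.06) lay inside the control range, and the other 8 ND kidneys lay above every control. The ND mean was 9.77 ± 0.62 (SD, n = 10), a difference of 0.98 ± 0.23 (SE) or 1.97-fold. ND_198 was therefore the lowest ND kidney for CD83, CTSS, LAPTM5 and FCGR3A, though it had rank 4 of 10 from the top for PLAC8. Control_184 was the lowest control for LAPTM5 and FCGR3A, and Control_02 or Control_197 the highest control for CD83, CTSS, LAPTM5 and FCGR3A. In these whole-tissue samples, fewer cells of a type and less RNA per cell cannot be told apart.

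**Figure D1:**
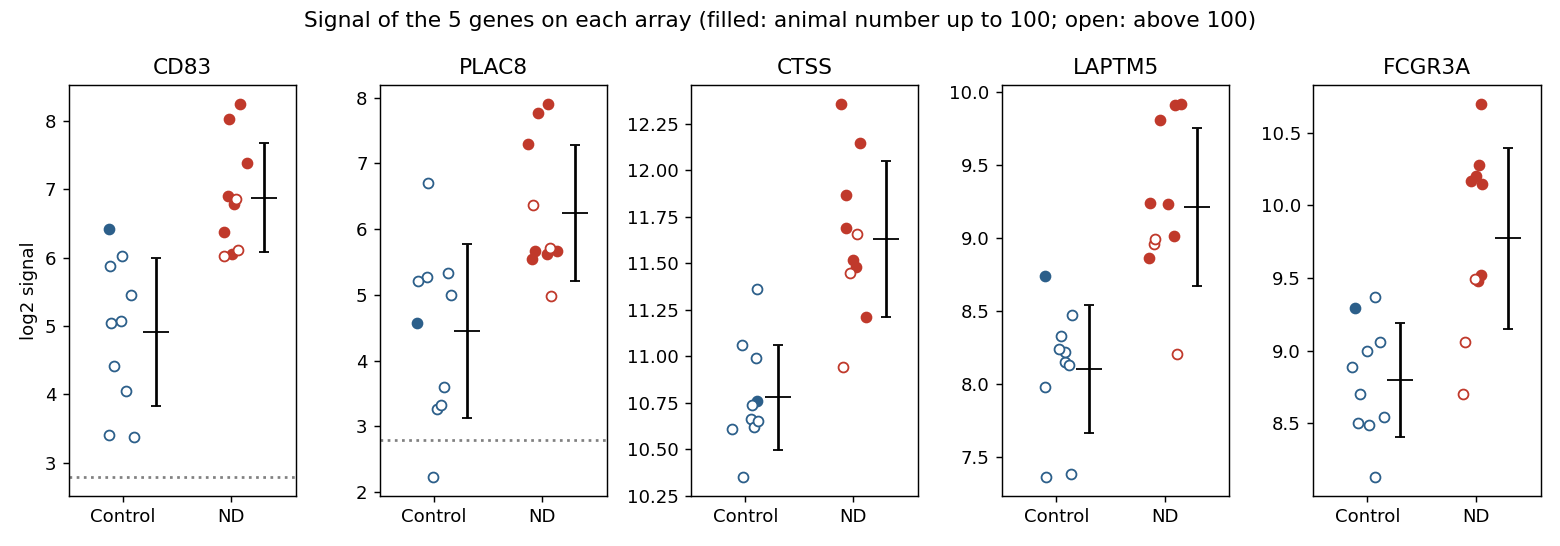
Log2 signal (vertical axis, a separate scale for each gene) of the brightest probe set of CD83, PLAC8, CTSS, LAPTM5 and FCGR3A on each of 20 arrays, with the mean and SD of each group beside the points, filled points for animals numbered up to 100 and the background level of 2.79 dotted where it falls in range. For LAPTM5, 9 of 10 ND points lie above all control points, while for PLAC8 only 3 do.

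The other 5 probe sets of these genes did not all follow the brightest. Of the 10 probe sets, 6 were among the 3.80% of all probe sets that were higher in ND, and none was among the 3.33% that were lower. That count rests on the contrast by which the genes were chosen. No probe set of the 10 had all ND kidneys above all controls, against 46 (0.192%) of all probe sets tested. Counted as genes by their brightest probe set, 5 of 5 were among the 5.44% of 6765 genes that were higher, for the same reason. When 1 animal was left out, 4 to 5 of the 5 stayed past the threshold. PLAC8 dropped out without any 1 of ND_01, ND_22, ND_31, ND_92, ND_198, Control_02, Control_184, Control_187, Control_190 or Control_199.

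The second CTSS probe set in brightness, Ssc.17203.3.S1_at, had a difference of 1.13 ± 0.27 (SE), from 8.75 in controls to 9.88 in ND, and 8 of 10 ND kidneys lay above every control. The dimmest CTSS probe set, Ssc.17203.2.S1_at, differed by 0.37 ± 0.15 (SE), from 5.28 to 5.65, and was not among the probe sets past the threshold. Within the ND group the 3 CTSS probe sets ran together, with r between 0.81 and 0.90 over 10 arrays. Within the controls, where the gene varied less, r was between 0.27 and 0.40 and rho between 0.21 and 0.71. Control_187 read 4.89 on the dimmest CTSS probe set, against 5.28 to 5.38 in the other controls.

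The dimmer CD83 probe set, Ssc.27299.1.S1_at, lay under the background level on all controls and on 8 of 10 ND arrays. It rose above background on ND_31 (3.57) and ND_86 (2.96), the 2 arrays with the highest signal on the brighter CD83 probe set, and its mean difference was 0.23 ± 0.14 (SE). The dimmer probe sets of LAPTM5 (Ssc.22037.2.S1_at) and FCGR3A (Ssc.167.4.S1_at) were under background on all 20 arrays. Their differences of -0.05 ± 0.02 (SE) and -0.02 ± 0.01 (SE) are therefore no measurement of either gene and lie close to the median of all probe sets.

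**Figure D2:**
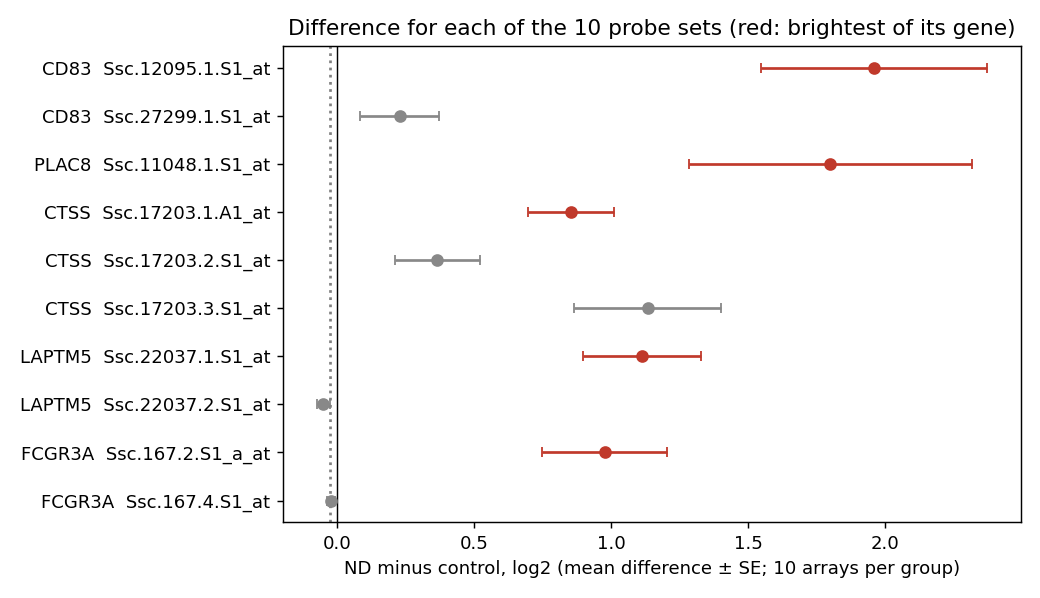
ND minus control difference in log2 signal (horizontal axis; mean ± SE, 10 arrays per group) for each of the 10 probe sets, in red for the brightest of its gene, with the median of all probe sets, -0.03, dotted. The red points lie between 0.85 and 1.96, while the dimmer probe sets of LAPTM5 and FCGR3A, which are under background on all arrays, lie beside 0.

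Because animal numbers were split unevenly between the groups, each gene was also compared among the 12 animals numbered above 100, 3 ND and 9 control. The differences there were 1.58 ± 0.58 (SE) for CD83, 1.24 ± 0.82 for PLAC8, 0.57 ± 0.20 for CTSS, 0.69 ± 0.26 for LAPTM5 and 0.34 ± 0.24 for FCGR3A. All 5 kept their direction, and each was smaller than among all 20 animals. FCGR3A shrank the most, from 0.98 to 0.34: ND animals numbered up to 100 had a mean of 10.07 (n = 7) and those above 100 a mean of 9.08 (n = 3), close to the 8.74 of the controls above 100 (n = 9). The corresponding ND means were 7.11 and 6.33 for CD83, 6.50 and 5.68 for PLAC8, 11.75 and 11.35 for CTSS, and 9.43 and 8.72 for LAPTM5. With a term for the number range in the fit of all 20 animals the differences were 1.33 ± 0.48 for CD83, 1.43 ± 0.66 for PLAC8, 0.69 ± 0.19 for CTSS, 0.69 ± 0.23 for LAPTM5 and 0.46 ± 0.22 for FCGR3A (SE). None of the 5 genes was past the threshold in either setting. With the term 0.872% of the 6765 genes rose, and among animals above 100 0.443% rose. The sources used here do not say what the number stands for, and its part in the differences was not tested.

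The 5 genes did not vary as one block between kidneys of the same group. A correlation within a group cannot come from the difference between the groups, so each of the 10 pairs of genes was correlated separately over the 10 ND and the 10 control arrays, which gave 20 relations. CTSS, LAPTM5 and FCGR3A formed a trio, grouped so after the values were seen, that varied together in both groups, and CD83 and PLAC8 stood apart from it. The median r over the 10 pairs was 0.35 in ND and 0.42 in controls. For scale, each trio gene was also correlated with 5640 genes above background. The percentile 95 of r in ND was 0.73 for LAPTM5, 0.72 for FCGR3A and 0.58 for CTSS. In controls it was 0.49, 0.50 and 0.53. The ND r of CTSS with LAPTM5 (0.72) and with FCGR3A (0.71) lay just under the levels for LAPTM5 and FCGR3A and above that for CTSS.

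LAPTM5 and FCGR3A had the highest r of the 10 pairs in both groups, though not the highest rho in ND. In ND kidneys r was 0.82 (permutation p = 0.0045, adjusted p = 0.045) and rho 0.68 (permutation p = 0.033, adjusted p = 0.095). In controls r was 0.85 (permutation p = 0.0012, adjusted p = 0.024) and rho 0.92 (permutation p = 0.00059, adjusted p = 0.012). Without the 2 arrays farthest from the median of LAPTM5, r was 0.72 in ND and 0.85 in controls. Among the 7 ND animals numbered up to 100 r was 0.62, and among the 9 controls above 100 it was 0.81.

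CTSS followed both genes, more clearly in ranks than in values. With FCGR3A, r was 0.71 in ND (permutation p = 0.021, adjusted p = 0.086) and 0.71 in controls (permutation p = 0.021, adjusted p = 0.086), while rho was 0.79 (permutation p = 0.0089, adjusted p = 0.036) and 0.83 (permutation p = 0.0050, adjusted p = 0.033). With LAPTM5, r was 0.72 in ND (permutation p = 0.019, adjusted p = 0.086) and 0.65 in controls (permutation p = 0.045, adjusted p = 0.15), while rho was 0.79 (permutation p = 0.0089, adjusted p = 0.036) and 0.89 (permutation p = 0.0012, adjusted p = 0.012). The ND value for CTSS and LAPTM5 leaned on the ends of the CTSS range: without ND_22 and ND_198, the highest and the lowest, r fell to 0.33. For CTSS and FCGR3A the same omission left r at 0.59 in ND, and leaving out Control_197 and Control_199 left 0.60 in controls. Without Control_197 and Control_199, CTSS and LAPTM5 had an r of 0.66. Within the number ranges r for CTSS was 0.53 with FCGR3A and 0.51 with LAPTM5 among 7 ND animals, and 0.80 and 0.77 among 9 controls.

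CD83 showed no correlation with the trio that passed in ND kidneys, with r of 0.06 with CTSS, -0.01 with LAPTM5 and 0.30 with FCGR3A (permutation adjusted p between 0.62 and 0.97). These values moved with the animals included: among the 7 ND animals numbered up to 100 they were -0.31, -0.66 and -0.14, and without ND_31 and ND_86 they were 0.09, 0.42 and 0.44. ND_86 had the highest CD83 of the ND group and was next to lowest for PLAC8, CTSS and LAPTM5, while ND_198 was lowest for CD83 and for all 3 genes of the trio. Without ND_86 alone r was 0.36, 0.16 and 0.49. In controls r was 0.35, 0.48 and 0.15 (permutation adjusted p between 0.35 and 0.84). PLAC8 was loosely related to the trio, with r of 0.46 with CTSS, 0.04 with LAPTM5 and 0.40 with FCGR3A in ND and 0.22, 0.16 and 0.55 in controls. The lowest permutation adjusted p among these 6 relations of PLAC8 was 0.25. Over 10 arrays only strong relations can pass this test, and a weak one would not have been detected.

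CD83 and PLAC8, the pair with the largest differences between groups, had a negative r in the controls that did not pass the adjustment. Their r was -0.63 (permutation p = 0.052, adjusted p = 0.15) and their rho -0.71 (permutation p = 0.027, adjusted p = 0.091), and r was -0.60 without Control_155 and Control_157. In ND kidneys r was 0.07 and rho -0.22. Grouped after the values were seen, the controls lay as follows. Control_155, Control_156 and Control_157 had CD83 at 3.38, 4.05 and 3.40 and PLAC8 at 5.27, 6.70 and 5.34. Control_184, Control_187, Control_190 and Control_199 had CD83 at 5.07, 6.03, 5.04 and 5.88 and PLAC8 at 3.27, 2.23, 3.60 and 3.32. Control_197, whose number lies between those of Control_190 and Control_199, had both at 5.46 and 5.21, Control_134 at 4.42 and 5.0, and Control_02 at 6.42 and 4.58. The r of CD83 with animal number in controls was -0.20 over 10 arrays and 0.92 without Control_02 and Control_134, the 2 numbers farthest from the rest and also the 2 arrays that lack the spike-in signal. For PLAC8 the matching values of r were -0.26 and -0.68. The part of the animal number in the opposite course of CD83 and PLAC8 was not tested.

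**Figure D3:**
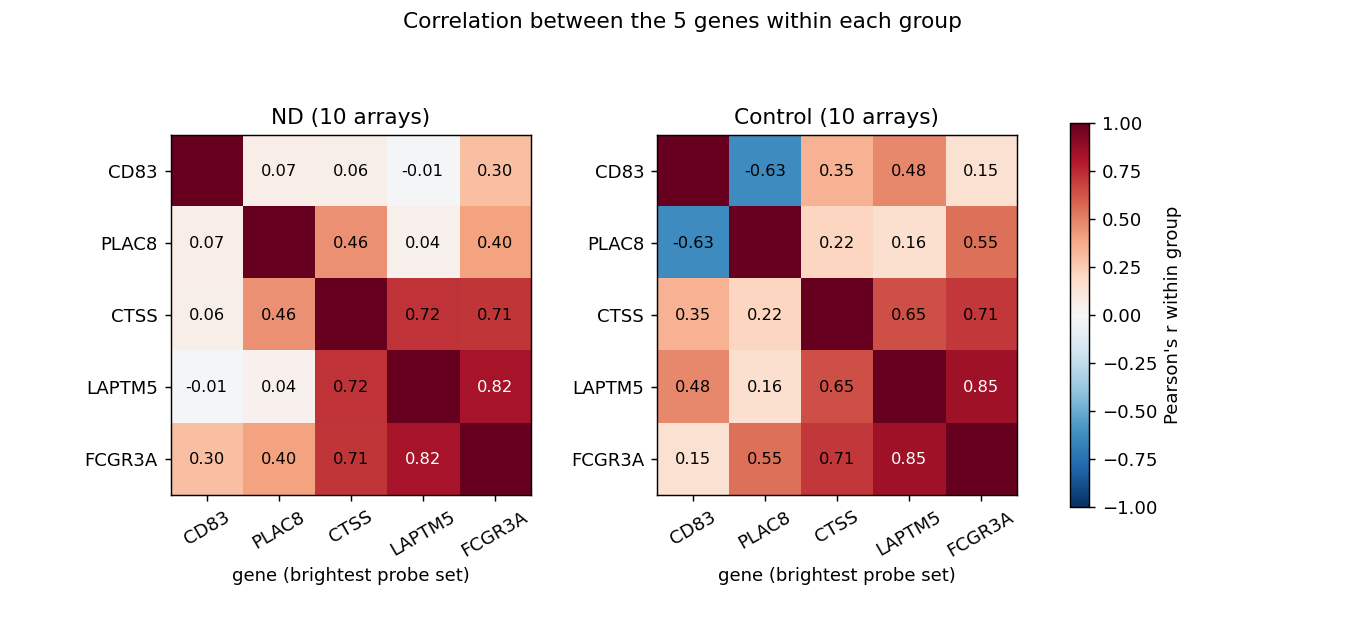
Pearson's r between each pair of the 5 genes (brightest probe sets) over 10 ND arrays (left) and 10 control arrays (right), with the colour scale from -1 to 1. The block of CTSS, LAPTM5 and FCGR3A holds r between 0.65 and 0.85 in both groups, and CD83 with PLAC8 is at -0.63 in controls and 0.07 in ND.

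**Figure D4:**
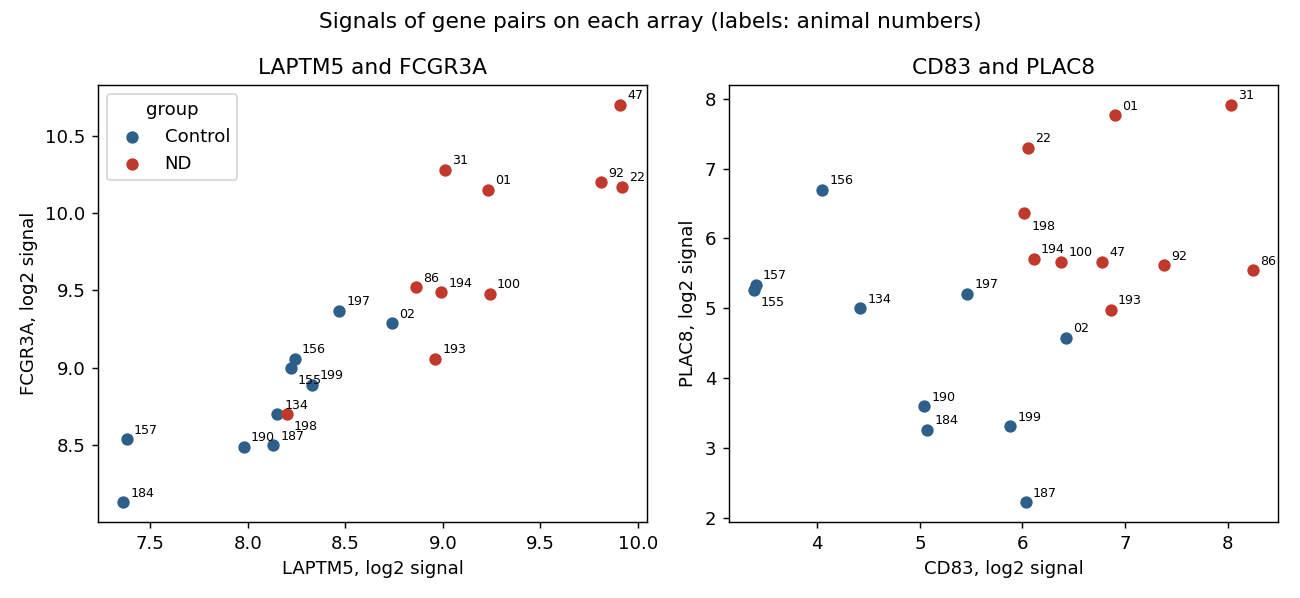
Log2 signals of LAPTM5 against FCGR3A (left) and of CD83 against PLAC8 (right), 1 point per array, red for ND and blue for control, labelled with animal numbers. The left points climb together within each group (r of 0.82 and 0.85), while on the right Control_155, Control_156 and Control_157 lie at low CD83 and high PLAC8 and Control_184, Control_187, Control_190 and Control_199 at higher CD83 and low PLAC8.

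FCGR3A moved with the median signal of the array in ND kidneys. Its r with that median was 0.93 in ND (permutation p = 0.0001, adjusted p = 0.003 over 30 relations of the 5 genes with 3 array measures) and 0.23 in controls (permutation adjusted p = 0.66). The ND rho was 0.88 (permutation p = 0.0014, adjusted p = 0.042), r was 0.86 without ND_193 and ND_198, and it was 0.83 among the 7 ND animals numbered up to 100. LAPTM5 had an r of 0.77 with the array median in ND (permutation p = 0.0096, adjusted p = 0.096; rho 0.77, permutation p = 0.013, adjusted p = 0.13; r of 0.68 without ND_193 and ND_198), and CTSS one of 0.59 (permutation p = 0.071, adjusted p = 0.30; rho 0.71, permutation p = 0.027, adjusted p = 0.16; r of 0.35 without the same 2). Neither passed the adjustment. The array medians of the ND group had an SD of 0.07, against 0.42 for CTSS, 0.54 for LAPTM5 and 0.62 for FCGR3A. Shifting arrays to the same median can therefore change r only a little. The genes were not regressed on the array median, and its part in their covariation was not tested. After every array was shifted to the same median, the ND values of r were 0.65 for CTSS and LAPTM5, 0.63 for CTSS and FCGR3A and 0.78 for LAPTM5 and FCGR3A. After each gene was regressed on the actin 3′ minus 5′ signal, a measure of RNA integrity, they were 0.67, 0.65 and 0.81. FCGR3A itself had an r of -0.65 with that actin measure in ND (permutation p = 0.043, adjusted p = 0.26). The rho was -0.78 (permutation p = 0.011, adjusted p = 0.13), and neither passed the adjustment. FCGR3A also fell with animal number in ND, with r of -0.83 (permutation p = 0.0036, adjusted p = 0.054). Its rho was -0.72 (permutation p = 0.023, adjusted p = 0.16), and r was -0.78 without ND_194 and ND_198. PLAC8 had an r of -0.66 with animal number in ND (permutation p = 0.037, adjusted p = 0.26) and a rho of -0.44 (permutation p = 0.20, adjusted p = 0.55). For PLAC8, r was -0.83 without ND_194 and ND_198 and -0.86 among the 7 ND animals numbered up to 100. Neither gene passed the adjustment for animal number.

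The genes most like each member were found among 5640 genes above background, by r over the 20 arrays after each group's mean had been subtracted. For scale, the genes between the percentiles 5 and 95 had r between -0.55 and 0.58 with FCGR3A, -0.51 and 0.54 with LAPTM5, -0.39 and 0.40 with CTSS, -0.40 and 0.38 with CD83 and -0.47 and 0.51 with PLAC8. FCGR3A was followed most closely by the leukocyte tetraspanin CD53 (r = 0.92), the granule proteoglycan SRGN (0.90) and FCER1G (0.89), the adaptor through which CD16 signals. When members are counted, LAPTM5 stood at place 11 and CTSS at place 72 in likeness to FCGR3A. LAPTM5 was followed by the complement component C1QC (0.86), CD53 (0.85) and the integrin subunit ITGB3 (0.80). For LAPTM5, FCGR3A stood at place 3 and CTSS at place 42 when members are counted. CTSS was followed by the ectonucleotidase ENTPD1 (0.75), C1QC (0.73) and the chromatin protein CBX3 (0.72), with FCGR3A at place 4 and LAPTM5 at place 6 when members are counted.

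None of the nearest genes of CD83 and PLAC8 is in the 13 lists described further on, and neither are SRGN, ITGB3, ENTPD1 and CBX3 named above. CD83 was followed by CLDND1 (0.71), CAMLG (0.70) and UBE2W (0.67). PLAC8 was followed by CRYZL1 (0.79), RFC5 (0.75) and MLF1 (0.74). None of these 6 differed between the groups at the threshold (limma, Benjamini-Hochberg adjusted p between 0.12 and 0.79). Among genes ranked by likeness to CD83, the other 4 members stood between place 875 and place 5268. Of the genes nearest to FCGR3A, LAPTM5 and CTSS, CD53 rose by 1.03 (adjusted p = 0.012) and CBX3 by 0.38 (adjusted p = 0.0028), while FCER1G, C1QC, ITGB3, ENTPD1 and SRGN differed by 1.09, 0.72, 0.86, 0.60 and 0.33 without passing (adjusted p between 0.073 and 0.42).

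The resident macrophage receptor MRC1 followed LAPTM5 in ND kidneys, although its mean signal was lower there than in controls. CD163, the hemoglobin scavenger receptor, fell by 2.04 (adjusted p = 0.0019), and MRC1, the mannose receptor, fell by 0.87 (adjusted p = 0.037; limma, Benjamini-Hochberg). MRC1 lost its call when any 1 of 10 animals was left out. Within the ND group, LAPTM5 had an r of 0.89 with MRC1 (permutation p = 0.00088, adjusted p = 0.035 over 40 relations of the 5 genes with CCL2, CD163, MRC1 and AIF1) and a rho of 0.82 (permutation p = 0.0057, adjusted p = 0.075). That r was 0.81 without ND_47 and ND_92 and 0.96 among the 7 ND animals numbered up to 100. FCGR3A had an r of 0.83 with MRC1 (permutation p = 0.0032, adjusted p = 0.061; rho 0.79, permutation p = 0.0085, adjusted p = 0.075; r of 0.75 without ND_47 and ND_92). LAPTM5 had an r of 0.82 with CD163 (permutation p = 0.0046, adjusted p = 0.061; rho 0.79, permutation p = 0.0092, adjusted p = 0.075; r of 0.88 without ND_47 and ND_193). In controls the same 3 relations had r of 0.01, -0.13 and 0.11, and whether r differed between the groups was not tested. Only the LAPTM5 and MRC1 relation of the 40 passed the adjustment by r, and none did by rho.

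CCL2, the monocyte chemoattractant, was at 7.93 or above on all ND arrays and at 6.90 or below on all controls (difference 3.84 ± 0.42, SE). Within the ND group its r was 0.66 with FCGR3A (permutation p = 0.039, adjusted p = 0.20; rho 0.79, permutation p = 0.0094, adjusted p = 0.075; r of 0.54 without ND_47 and ND_194) and 0.63 with CD83 (permutation p = 0.053, adjusted p = 0.24; rho 0.65, permutation p = 0.048, adjusted p = 0.28; r of 0.78 without the same 2). Neither passed the adjustment. Of these 4 genes, PLAC8 had its highest r in ND kidneys with AIF1, a macrophage calcium-binding protein, at 0.78 (permutation p = 0.0092, adjusted p = 0.087; rho 0.61, permutation p = 0.067, adjusted p = 0.32; r of 0.92 without ND_01 and ND_47), which did not pass either.

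Lists of genes that work with the 5, or that mark the cells that could carry them, were then read in the same fit. None of the 5 genes is in any of the 13 lists. For comparison, 5.44% of the 6765 genes rose and 4.55% fell, and the median difference over those genes was -0.02.

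Partners of FCGR3A rose in part. Of 11 measured genes of Fc receptors and ITAM signalling 4 rose and none fell, with a median difference of 0.46. The inhibitory receptor FCGR2B rose by 1.40 (adjusted p = 0.023) and the scaffold LCP2 by 1.11 (adjusted p = 0.012). The adaptor TYROBP rose by 0.68 (adjusted p = 0.025), a call it lost without ND_92, and the exchange factor VAV1 by 0.54 (adjusted p = 0.049). FCER1G differed by 1.09 ± 0.37 (SE, adjusted p = 0.081), with ND kidneys between 3.94 and 7.49 and controls between 3.65 and 5.04. The high-affinity receptor FCGR1A and the phosphatase PTPN6 were at background on all arrays.

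Among the genes that work with CTSS, 3 of MHC class II presentation rose. Of 11 measured genes of MHC class II presentation 3 rose and none fell, with a median of 0.44: SLA-DMB, the peptide-exchange subunit, by 0.67 (adjusted p = 0.0036), SLA-DQB1 by 0.64 (adjusted p = 0.032) and SLA-DQA1 by 0.84 (adjusted p = 0.049). CD74, the invariant chain that CTSS cleaves, differed by 0.44 ± 0.14 (SE, adjusted p = 0.069). Of 14 lysosomal proteases and inhibitors none rose (limma; 1 was higher at an unadjusted p under 0.05) and CTSV fell by 0.42 (adjusted p = 0.044), with a median of -0.07. CTSB (-0.16), CTSC (0.00), CTSD (0.07) and the secreted inhibitor CST3 (-0.03) differed little, and CTSK differed by 0.48 (adjusted p = 0.051). In 6 other settings with all animals, among them quantile normalization and array weights, and in 3 that leave out 1 animal, 1 gene of this list rose. SLA-DQB1 lost its call without any 1 of ND_86, ND_92, Control_184, Control_187 or Control_190. SLA-DQA1, CTSV and VAV1 lost theirs in 14 to 15 of the 20 settings that leave out 1 animal.

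Lysosomal neighbours of LAPTM5 were flat as a list. Of 17 genes of the lysosome membrane and lysosome biogenesis 1 rose, the ubiquitin ligase ITCH by 0.27 (adjusted p = 0.023), and 1 fell, the proton pump subunit ATP6V1H by 0.42 (adjusted p = 0.0096), with a median of -0.02. LAPTM4A, a relative of LAPTM5 that is not restricted to blood cells, differed by -0.02 ± 0.04 (SE).

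The company that CD83 keeps on a mature dendritic cell was largely dim. Of 11 genes of dendritic cell maturation and costimulation (list median 0.04) only CD40 rose, by 0.50 (adjusted p = 0.047), a call it lost in 15 of 20 settings that leave out 1 animal. CCR7, IL12A, IL12B and XCR1 were at background on all arrays. The costimulatory gene CD86 was above background on 3 ND arrays and on no control array, and CD80 differed by -0.07 ± 0.05 (SE). CD80 was also dim, with means of 3.01 in ND and 3.07 in controls. The fascin gene FSCN1 and the chemokine gene CCL19 differed by 0.74 and 1.35 without passing. Of 9 genes of the NF-kB pathway and its feedback, CD40 and TNIP1 rose, TNIP1 by 0.57 (adjusted p = 0.00028), and the median was -0.01. The inhibitor NFKBIA differed by -0.02 ± 0.13 (SE).

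Markers of the cells that could carry the 5 genes went in different directions. Of 14 markers of the monocyte and macrophage lineage (list median 0.06) 3 rose, the transcription factor IRF8 by 1.34 (adjusted p = 0.00037), the endotoxin receptor TLR4 by 0.79 (adjusted p = 0.014) and SIRPA by 0.71 (adjusted p = 0.021), while CD14 fell by 0.54 (adjusted p = 0.045). ITGAM, CEBPA and CCR2 were at background on all arrays. SPI1, the myeloid master regulator, differed by 0.45 ± 0.19 (SE, adjusted p = 0.13). Of 10 receptors and other markers of resident macrophages none rose and 3 fell, CD163, MRC1 and the heme oxygenase HMOX1 (by 1.09, adjusted p = 0.016). The complement components C1QA and C1QC of that list differed the other way, by 0.70 and 0.72, without passing (adjusted p = 0.17 and 0.073). The list median was -0.27, and the mean log2 signal of that list ran from 5.70 to 6.64 in ND and from 6.18 to 6.69 in controls. CD14 lost its call in 12 of 20 settings that leave out 1 animal.

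Some pan-leukocyte genes and some T and natural killer cell genes were also higher in ND. Of 9 pan-leukocyte genes 5 rose, CORO1A by 1.34, CD53 by 1.03, LCP1 by 0.86, ITGB2 by 0.83 and ARHGDIB by 0.73 (adjusted p between 0.010 and 0.029), with a list median of 0.73. The common leukocyte antigen PTPRC differed by 0.10 ± 0.10 (SE). Its means were 3.47 in ND and 3.38 in controls, not far above the background level of 2.79. Of 15 T and natural killer cell genes 5 rose, among them GNLY by 1.49 (adjusted p = 0.0015) and LCK by 1.13 (adjusted p = 0.012), and the list's mean log2 signal ran from 3.13 to 4.21 in ND and from 2.79 to 3.27 in controls. CD3E, which defines T cells, exceeded the background level on 5 ND arrays and on 0 control arrays, while CD4, CD8B, CD27, IL7R and PRF1 were at background on all arrays. ITGB2 lost its call without any 1 of ND_01, Control_157 or Control_187. CD8A lost its call in 16 and GZMH in 15 of the 20 settings that leave out 1 animal, and 3 to 5 genes of the T and natural killer cell list rose in those settings and 3 with quantile normalization.

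Neutrophil and B cell markers showed no call. Of 9 neutrophil genes none rose or fell (limma; 0 higher and 2 lower at an unadjusted p under 0.05), and 7, S100A8 and MMP9 among them, were at background on all arrays. S100A9 read 4.19 ± 1.13 in ND and 4.50 ± 1.32 in controls (SD, n = 10 each). Of 5 B and plasma cell genes none rose or fell (1 higher and 0 lower unadjusted, list median -0.03), and of 5 kidney epithelial genes none did (0 higher and 1 lower unadjusted, list median -0.23). The parts of T and natural killer cells, macrophages and other leukocytes in the signals of the 5 genes were not tested.

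With the number term in the fit 0.872% of the 6765 genes rose and 1.91% fell, and among animals above 100 alone 0.443% rose and 0.946% fell. In these settings none of the pan-leukocyte, Fc receptor, MHC class II or T and natural killer cell genes rose. At an unadjusted p under 0.05, 4 pan-leukocyte, 1 Fc receptor, 1 MHC class II and 2 T and natural killer cell genes were higher with the term, and 1, 2, 1 and 2 among animals above 100 (limma). The list medians of these groups, in the same order, were 0.47, 0.18, 0.23 and 0.23 with the term and 0.25, 0.06, 0.20 and 0.10 among animals above 100. The part of the animal number in these lists was not tested. IRF8 (adjusted p = 0.021), TNIP1 (adjusted p = 0.0050), CD163 (adjusted p = 0.0042) and MRC1 (adjusted p = 0.046) kept their calls with the term, and TNIP1 (adjusted p = 0.034) and CD163 (adjusted p = 0.018) also among animals above 100.

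Scaling moved some of these counts. When every array was shifted to the same median, 5.97% of the 6765 genes rose and 24.3% fell. In that setting 5 Fc receptor, 5 MHC class II, 5 pan-leukocyte and 7 T and natural killer cell genes rose and 2, 1, 1 and 3 fell, and 6 genes of the resident macrophage list fell and 1 rose. Of that list 1 gene also rose with dim probe sets left out, with the actin covariate and without ND_198. In the neutrophil list, where 7 of 9 genes are at background on all arrays, 7 passed as lower. The Fc receptor, MHC class II, pan-leukocyte, T and natural killer cell and resident macrophage lists hold 2, 0, 1, 5 and 2 such genes. In the monocyte and macrophage list, with 3 such genes, 4 fell after the shift against 1 before it, and 3 rose either way. The list medians of the monocyte and macrophage genes and of the dendritic cell genes turned to -0.03 and -0.05 after the shift.

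**Figure D5:**
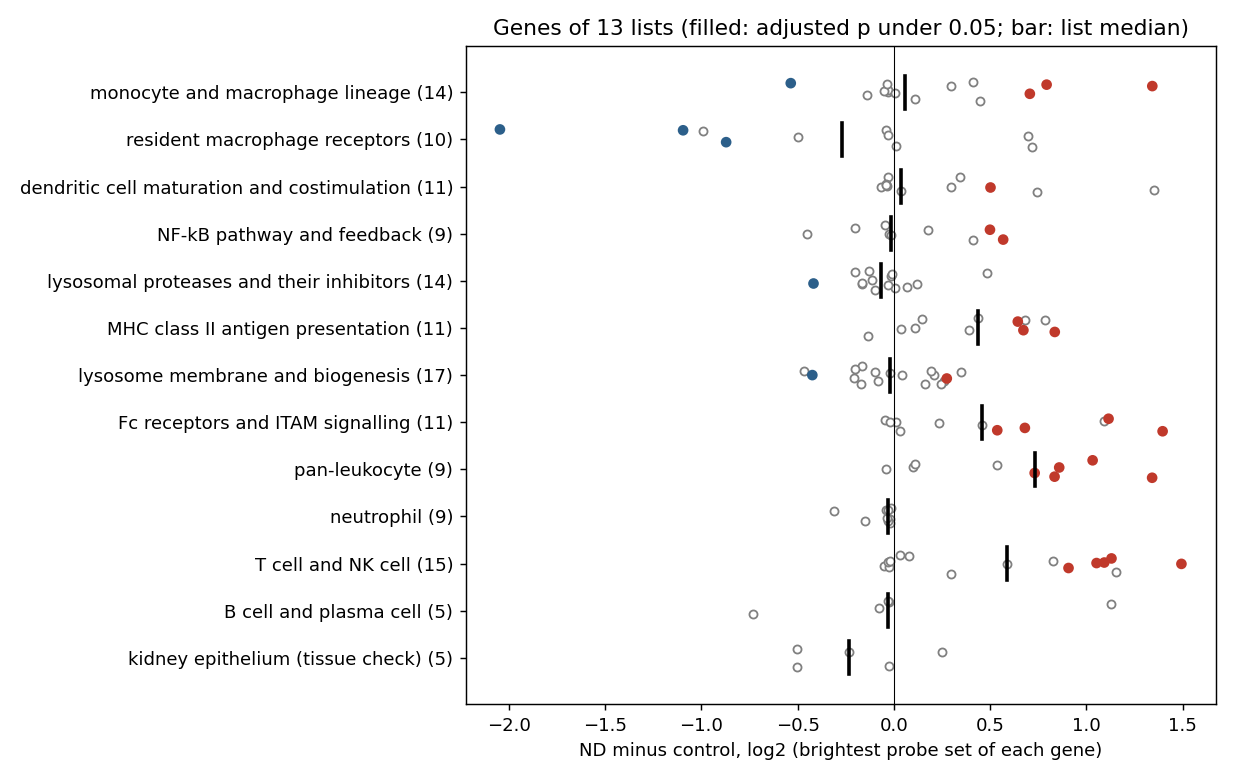
ND minus control difference in log2 signal (horizontal axis) of each measured gene in 13 lists, by its brightest probe set, filled where the adjusted p (limma, Benjamini-Hochberg) was under 0.05, with the list median as a bar and the number of measured genes in brackets. The medians of the pan-leukocyte (0.73), T and natural killer cell (0.59), Fc receptor (0.46) and MHC class II (0.44) lists lie right of 0, those of the lysosomal lists at -0.07 and -0.02, and that of the resident macrophage receptors at -0.27.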

How the data were processed

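Per the labels' protocols, RNA was extracted with TRIzol and biotin-tagged cRNA was prepared from 250 ng of it for a 1-colour array. The deposited table, made by the authors, holds 1 value for each probe set on each array. The unit was taken as log2 from the range of the values the authors deposited; the summarization and the normalization between arrays are not given in the sources used here, and they can move the balance of rises and falls. Of 24123 probe sets, 124 control probe sets were left out. Platform annotation gave 1 symbol to 10069 of the 23999 tested probe sets, several to 198 and none to 13732; 9961 of the 10069 matched a RefSeq gene table by Entrez ID, and 0 symbols changed. Each of 6765 genes was represented by its brightest probe set over 20 arrays. No sequences or coordinates were used.

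The contrast of ND with control was fitted without covariates in limma 3.58.1 (functions lmFit and eBayes; R 4.3.3) on the deposited log2 values, with Benjamini-Hochberg adjustment over all 23999 probe sets and a threshold of 0.05. Adjusted p-values of genes in the report are from this fit unless the sentence names another setting. The step was tested on simulated data. Correlations within groups used brightest probe sets, two-sided permutation tests (100000 resamples) and Benjamini-Hochberg adjustment within each family of relations. The labels do not say whether animals shared a litter or day. The p-values measure the spread between these animals and treat them as independent, which could not be checked. The number of arrays limits the precision.

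The 5 genes, the 13 lists and the relations with other genes were chosen with earlier results of these data known. The rule for named genes was all probe sets of the 5 genes, the 3 most like genes of each, up to 2 rises and 2 falls per list by p, and a set of leukocyte and kidney markers; other genes in the lists were named after their values were seen. CSF1R, CD68, SYK, CTSL, MS4A1, NKG7, CSF3R, UMOD and AQP2 had no probe set with that single symbol. Alternatives were other scalings, filters, variance models, array weights, an animal number term, animals above 100 only, leaving out each animal, and, added after seeing the data, leaving out Control_02 and Control_134 and an actin 3′ minus 5′ covariate.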

Additional observations from a re-analysis of the deposited data

Results flagged for a closer look

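In each of 20 groups of 10 values (10 probe sets in ND and in controls) the highest and lowest array were compared with their neighbours, and 2 stood far from the rest; chance flags about 1 in 20 such groups. Both belong to the dimmest CTSS probe set, Ssc.17203.2.S1_at. ND_22 read 6.80 in the ND group, where the next array read 5.99, a gap of 0.496 of the group's range. Control_187 read 4.89 in the controls, where the next array read 5.28, a gap of 0.791 of the range. ND_22 was also the highest ND array on the other 2 CTSS probe sets, while Control_187 was the lowest control on neither of them.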

How the results depend on the processing

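The differences of CD83, PLAC8, CTSS, LAPTM5 and FCGR3A by their brightest probe sets stayed above 0 in every setting run. None of these genes passed the threshold with an animal number term or among animals above 100. PLAC8 also missed it without Control_02 and Control_134. When 1 animal was left out, 4 to 5 of the 5 genes passed, and PLAC8 was the gene that did not. Leaving out 1 animal at a time gave 1.79 to 2.13 for CD83, 1.55 to 2.05 for PLAC8, 0.77 to 0.93 for CTSS, 1.03 to 1.22 for LAPTM5 and 0.87 to 1.10 for FCGR3A. Taking the dimmer probe set instead gave -0.0503 for LAPTM5 and -0.0225 for FCGR3A, both under background on all arrays.

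The number of probe sets past the threshold was 1712 (913 higher, 799 lower) as reported and 1295 to 2303 when 1 animal was left out. It was 505 with an animal number term, 267 among animals above 100, with 12 of 20 arrays, and 619 at an adjusted p under 0.01. Shifting every array to the same median gave 8789 (1061 higher, 7728 lower, median difference -0.12), and quantile normalization gave 2115 (917 higher, 1198 lower). Without Control_02 and Control_134, a setting chosen after seeing the data, it was 1612. The cause of the changes in these counts was not tested. The median r of the 10 gene pairs in ND was 0.35, 0.24 to 0.43 when 1 animal was left out, and 0.12 among the 7 animals numbered up to 100. In controls it was 0.42, and 0.36 to 0.49 when 1 animal was left out. No paired analysis was possible because the groups share no animal numbers.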
